A study of Mus musculus with 7 samples.

Results

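The TGF-β, BMP and activin pathway genes are the ligands, receptors, SMADs and extracellular regulators of one signalling superfamily, and their open chromatin was examined in mouse pancreatic β cells that had lost the chromatin remodelers CHD3 and CHD4. Members were chosen by gene symbol alone, among the symbols that the deposited table assigns to each accessible region. They comprised 201 of 61288 listed regions, assigned to 57 of 24453 symbols. The table lists regions that the authors had called different between the groups, so a member here is a region already called by them, and genes of the superfamily without such a region (among them Tgfbr2, Tgfb3, Bmp4, Inhba, Inha, Chrd and Tgif2) were not analysed here. ATAC-seq, in which the transposase Tn5 cuts and tags open chromatin, was carried out with nuclei from Tomato-positive β cells, which had been sorted from islets of male mice. The 4 Control libraries came from mice with intact Chd3 and Chd4, the MIP-CreERT transgene and the R26 LSL-tdTomato reporter. The 3 Chd3/4Δβ libraries (labelled Chd3-4Db) came from Chd3 fl/fl;Chd4 fl/fl mice with the same transgene and reporter. Both groups received tamoxifen, given as 10 oral doses over 2 weeks from 4 weeks of age. Cre was driven by the mouse Ins1 promoter, so both the deletion and the sort rest on Ins1-promoter activity and recombination. The labels do not tell whether replicates are separate animals, so the p-values reflect the variation among the 7 libraries and part of it may be technical.

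In this pathway a dimeric ligand (a TGF-β, BMP, GDF or activin) brings together type I and type II receptor kinases at the cell surface. The type I receptor phosphorylates receptor-regulated SMADs, which join SMAD4 and act on target genes in the nucleus. Secreted antagonists and latent TGF-β binding proteins hold ligands outside the cell, whereas inhibitory SMADs, SMURF ubiquitin ligases and nuclear corepressors such as SKI limit the signal inside it. In islets the superfamily is known for roles in endocrine differentiation and in insulin secretion by the mature β cell.

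Accessibility is given as CPM, the reads in a region scaled by library size and not by region length. The authors' name for the comparison reads as a filter of above 1 CPM in at least 3 libraries. Under such a filter a region low in 1 group was listed only through the other group. Its separation and direction were then set in part by how it entered. Library sizes implied by the deposited CPM ranged from 17.6 to 42.4 M in Control and from 17.8 to 44.0 M in Chd3/4Δβ. Depth was uneven between the groups. Control replicates 1 to 3 and Chd3/4Δβ replicate 3 were shallow (17.6 to 20.9 M), and Control replicate 4 and Chd3/4Δβ replicates 1 and 2 were deep (39.0 to 44.0 M). Marker levels below are sums over listed regions alone, which the authors had called different, so some separation of the groups was built into them. The β-cell marker list had listed regions at 8 of its 8 genes, with a summed level of 854 to 1058 CPM in Control and 434 to 691 CPM in Chd3/4Δβ. Mesenchymal markers, from cells that use many of these ligands and antagonists, had regions at 7 of 8 genes (none at Col3a1) and summed to 30.8 to 34.3 CPM in Control and 77.4 to 90.8 CPM in Chd3/4Δβ. The endothelial list (6 of 6 genes) summed to 64.8 to 72.3 CPM in Control and 95.8 to 127 CPM in Chd3/4Δβ. The δ-cell list (3 of 4 genes, none at Hhex) summed to 43.3 to 44.7 CPM in Control and 87.3 to 90.0 CPM in Chd3/4Δβ. The α-cell list (6 of 6 genes) summed to 53.7 to 60.6 CPM in Control and 71.5 to 76.6 CPM in Chd3/4Δβ. Acinar markers (2 of 6 genes) and immune markers (1 of 6 genes) had few listed regions, none at Cpa1, Prss1, Cd68 or Cd3e, and these also summed higher in every Chd3/4Δβ library than in any Control library. Ductal markers (4 of 4 genes) summed to 86.9 to 94.8 CPM in Control and 89.8 to 131 CPM in Chd3/4Δβ, and these ranges overlapped. Accessibility of a marker gene in a sorted population does not separate foreign cells from opened chromatin in β cells, fewer β cells and less accessibility per β cell cannot be told apart in bulk nuclei, and the part of either in the pathway results was not tested. Chd3/4Δβ replicate 3 stood nearer to Control than the others of its group, with a correlation of log2 CPM across regions of 0.687 to 0.700 with the Control libraries, against 0.594 to 0.620 for replicates 1 and 2.

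To show the gene starts that opened, the promoter sequences of the 4 members with a called gain over their RefSeq start are shown with that of Ski for comparison, a promoter that held many reads in both groups and was not called. The Bmp7 promoter was called higher too, but no RefSeq window of Bmp7 fell in it, so it is left out here. The sequences are the 250 bases upstream of the RefSeq start in GRCm38.p6, written 5′ to 3′ on the gene's strand. Capitals mark the SMAD box CAGAC or its reverse complement and the GC-rich SMAD motif GGCGCC, both searched on both strands together with the AP-1 motif TGACTCA, which occurs in none of them. No 2 matches overlap in these windows. Bmp8b lies at chr4:123104911-123105160 on the plus strand, Bmp6 at chr13:38345466-38345715 on the plus strand, Gdf1 at chr8:70329515-70329764 on the plus strand, Gdf10 at chr14:33923337-33923586 on the plus strand, and Ski at chr4:155222536-155222785 on the minus strand.
Bmp8b: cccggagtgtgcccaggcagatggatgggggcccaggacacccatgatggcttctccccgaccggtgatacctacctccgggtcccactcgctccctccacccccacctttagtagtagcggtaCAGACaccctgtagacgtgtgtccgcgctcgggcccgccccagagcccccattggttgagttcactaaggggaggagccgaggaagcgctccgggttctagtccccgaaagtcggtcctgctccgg
Bmp6: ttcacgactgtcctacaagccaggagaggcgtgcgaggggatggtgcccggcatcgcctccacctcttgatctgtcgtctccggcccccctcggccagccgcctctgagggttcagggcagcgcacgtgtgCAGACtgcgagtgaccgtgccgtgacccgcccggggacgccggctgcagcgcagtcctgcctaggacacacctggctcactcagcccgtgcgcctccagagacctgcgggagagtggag
Gdf1: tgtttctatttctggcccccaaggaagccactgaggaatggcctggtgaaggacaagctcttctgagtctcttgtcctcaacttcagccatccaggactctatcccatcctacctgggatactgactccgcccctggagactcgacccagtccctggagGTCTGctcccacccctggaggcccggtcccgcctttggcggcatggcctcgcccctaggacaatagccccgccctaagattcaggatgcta
Gdf10: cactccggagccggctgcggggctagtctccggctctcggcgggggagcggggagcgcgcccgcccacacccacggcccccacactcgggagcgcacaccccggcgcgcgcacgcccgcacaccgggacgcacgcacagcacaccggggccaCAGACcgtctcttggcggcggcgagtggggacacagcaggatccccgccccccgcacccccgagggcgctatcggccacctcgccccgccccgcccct
Ski: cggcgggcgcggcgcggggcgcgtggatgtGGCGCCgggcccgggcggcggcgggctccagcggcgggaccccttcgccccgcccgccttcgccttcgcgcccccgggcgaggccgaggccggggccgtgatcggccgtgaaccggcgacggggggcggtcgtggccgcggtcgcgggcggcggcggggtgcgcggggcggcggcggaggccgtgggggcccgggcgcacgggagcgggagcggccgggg
The RefSeq promoter table held 41 of the 57 genes, and for 20 genes the window of a member fell in one of its own listed regions. The SMAD box was found in 12 of these 20 windows, namely in 4 of 4 in regions called higher and in 8 of 16 in regions not called, against 42.2% of all 32851 RefSeq promoter windows of this length. GGCGCC was found in 3 of 20 windows (Ski, Bmpr1a and Grem1), against 9.59% of all windows, and TGACTCA in none, against 4.46%. The 20 windows had a median GC content of 71.8% and a median of 24 CpG dinucleotides, against 52.4% and 6 over all windows. The 4 windows in regions called higher ranged from 59.2% GC with 7 CpG (Gdf1) to 78.8% with 35 (Gdf10). A match is a description of the letters and no evidence of binding.

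The comparison asks how accessibility at these genes differed once CHD3 and CHD4 were lost. Of the 201 regions, Chd3/4Δβ libraries were higher at 59 and lower at 34, and 108 passed neither threshold (edgeR quasi-likelihood F-test with Benjamini-Hochberg adjustment, called with an adjusted p under 0.05 and a log2 fold change of 1 or more in size). Over all listed regions 37% were higher and 20.4% lower, 57.4% in either direction, so the members' shares of 29.4% and 16.9% did not exceed the background. The median log2 fold change was 0.49 over the members and 0.56 over all listed regions. The libraries of the groups did not overlap at 87.6% of the members, against a background of 88%. By gene, 26 had regions called higher alone, 14 lower alone, 7 in both directions and 10 in neither. The balance of calls depended on the scaling. The share of higher among called members was 63.4% with the deposited library sizes, 52.5% with TMM factors, 44.1% with RLE factors and 45.1% after cyclic loess, while the median of all listed regions moved from 0.56 to 0.35, 0.25 and 0.14. The directions were uneven between roles. Among ligands 17 of 35 regions were higher and 4 lower, and among antagonists and latent binding proteins 28 of 72 were higher and 6 lower. Among receptors 8 of 42 were higher and 13 lower, and among SMADs and SMURFs 5 of 36 were higher and 10 lower. The medians were 0.94 for ligands, 0.83 for antagonists and latent binding proteins, -0.73 for receptors and -0.61 for SMADs and SMURFs, and each kept its sign with TMM factors, RLE factors, cyclic loess and a term for sequencing depth. A difference between roles was not tested, since regions of one gene share their locus.

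**Figure D1:**
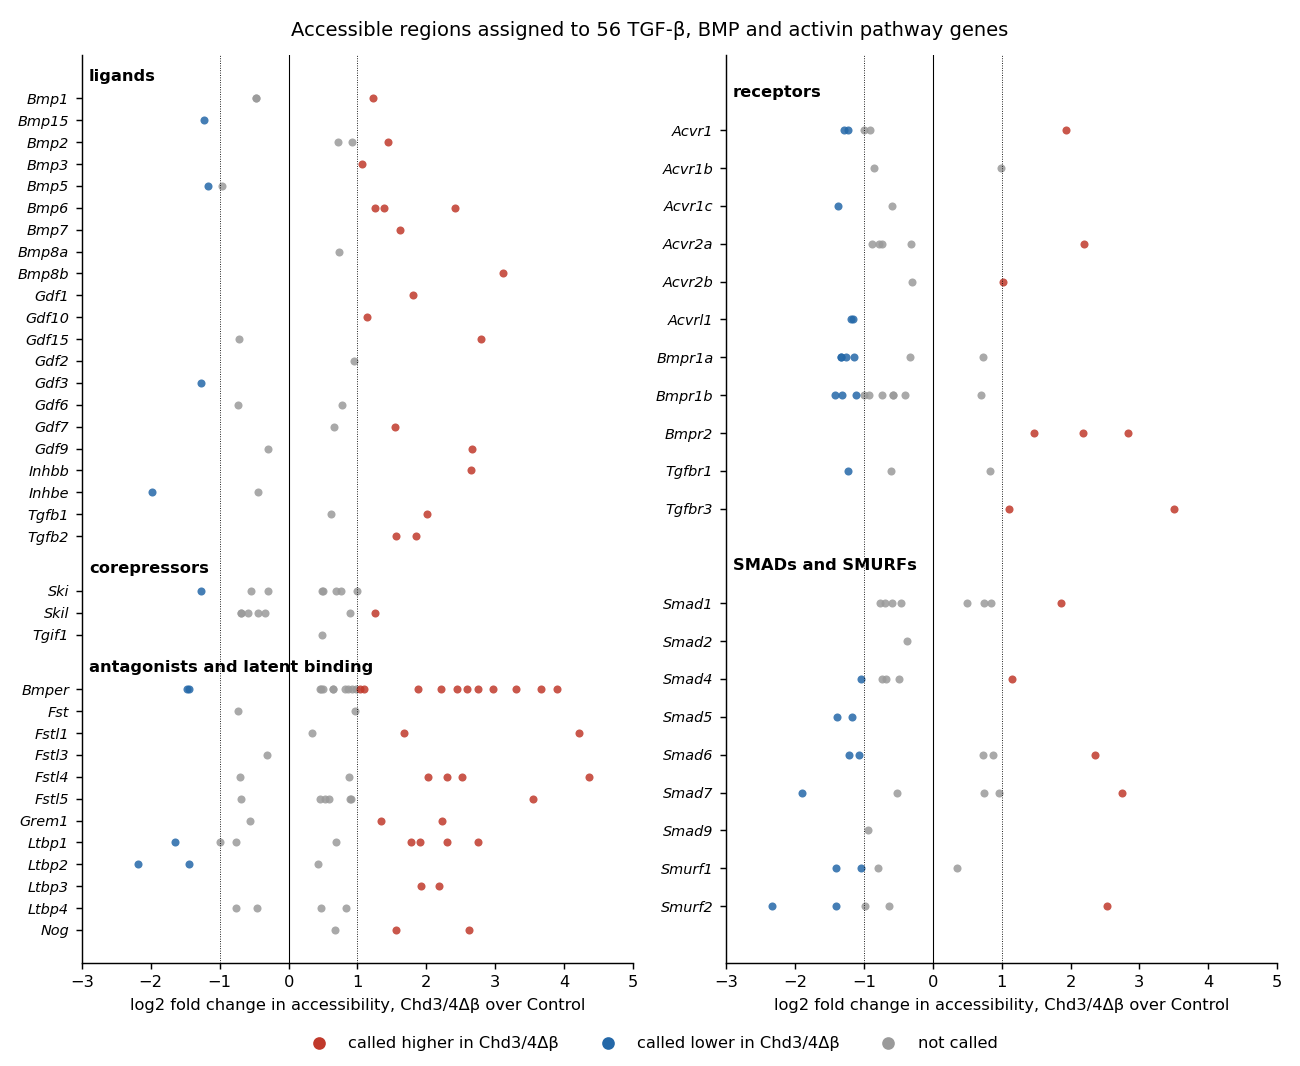
Log2 fold change in accessibility (x axis, Chd3/4Δβ over Control) of 193 member regions, 1 row for each of 56 genes, grouped by role. Red points are called higher (59), blue points called lower (33) and grey points not called (101), dotted lines mark a log2 fold change of 1 and -1, and points of most ligands and antagonists lie to the right, those of Bmpr1a, Bmpr1b and Smad5 mostly to the left.

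**Figure D2:**
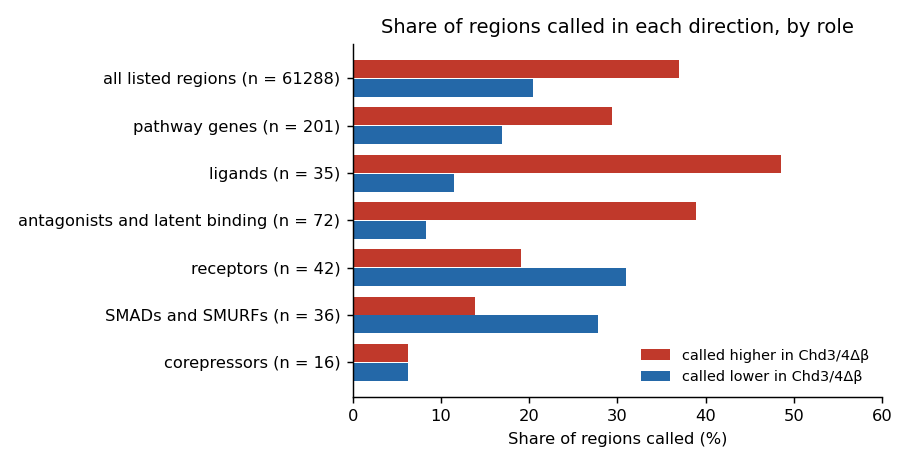
Share of regions called higher (red) and lower (blue) in Chd3/4Δβ, in percent of the regions in each role, beside all pathway regions and all 61288 listed regions (n in parentheses). Ligands had 48.6% called higher and receptors 19%, against 37% of all listed regions.

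The largest gain at the start of a ligand gene was at Bmp8b. The region at the start of this BMP ligand, known from brown fat and germ cells, spans chr4:123104514-123106097 in GRCm38 and covers the promoter and the first exon. Its accessibility was 2.55, 3.20, 2.20 and 3.18 CPM in Control replicates 1 to 4 and 28.1, 24.4 and 20.6 CPM in Chd3/4Δβ replicates 1 to 3. Every Chd3/4Δβ library lay above every Control library, and the log2 fold change was 3.12 (SE 0.18, adjusted p = 8.5e-12), the largest of any ligand. Its neighbour in the family, Bmp8a, had a promoter region of 16.96 ± 2.6 CPM (SD, n = 4) in Control and 28.2 ± 3.7 CPM (n = 3) in Chd3/4Δβ, a log2 fold change of 0.73 that did not reach the fold threshold. The 2 genes are near-identical in places, so reads may have been split between them. Bmp6, the ligand that controls hepcidin in the liver, was higher at 3 of its 3 regions. At its start (chr13:38344919-38347621, promoter and first exon) the level was 6.52, 7.54, 9.37 and 8.13 CPM in Control and 20.4, 19.4 and 16.7 CPM in Chd3/4Δβ. The groups did not overlap, and the log2 fold change of 1.25 (SE 0.16) missed the threshold with RLE factors. The other Bmp6 regions, both intronic, changed by 1.38 and 2.41.

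The promoter of Bmp7, a ligand of kidney and eye development, had 3.63, 4.99, 5.88 and 6.39 CPM in Control and 19.7, 19.01 and 9.45 CPM in Chd3/4Δβ. Replicate 3 was the lowest of the Chd3/4Δβ libraries here and still above all Control libraries (log2 fold change 1.62, SE 0.23, adjusted p = 4.4e-06). Bmp2, another BMP, was higher at 1 of 3 regions, an exonic region (log2 fold change 1.44), and Bmp3, which is known as an inhibitory BMP, at its single intronic region (1.07). The Bmp3 call was lost with TMM factors, RLE factors, cyclic loess or the replicate block and without Chd3/4Δβ replicate 3. Genes with a Bmp symbol, Bmp1 included, had 16 regions, of which 8 were higher (50%) and 2 lower (12.5%). Over all listed regions these shares were 37% and 20.4%. Bmp15, an oocyte ligand, had 1.47, 1.19, 1.96 and 1.81 CPM in Control and 0.568, 0.872 and 0.619 CPM in Chd3/4Δβ at an intergenic region 66467 bp from an annotated start (log2 fold change -1.23, SE 0.32, adjusted p = 0.0027). An intronic region of Bmp5 was lower as well (-1.18), a call lost when sequencing depth was a term of the fit. Bmp1, which despite its symbol encodes a metalloprotease that processes procollagen, was higher at 1 of 3 regions (1.22), a call lost with RLE factors, cyclic loess or the depth term.

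Of 12 GDF regions 5 were higher and 1 lower, and the share higher (41.7%) was near the 37% of all listed regions. The Gdf1 promoter region, which lies inside the Cers1 and Gdf1 gene bodies and cannot be assigned to either alone, had 0.624, 0.651, 1.43 and 0.943 CPM in Control and 3.36, 3.34 and 3.04 CPM in Chd3/4Δβ (log2 fold change 1.81, SE 0.30, adjusted p = 2.1e-05). GDF1 is a ligand of left-right patterning. The Gdf10 promoter had 3.40, 2.60, 4.45 and 3.89 CPM in Control and 9.02, 8.85 and 5.85 CPM in Chd3/4Δβ. The groups did not overlap at either promoter, but the Gdf10 call (log2 fold change 1.14, SE 0.22) was lost with TMM factors, RLE factors, cyclic loess or the depth term. Outside promoters, Gdf15, a stress-induced cytokine, was higher 10158 bp upstream of its start (2.79), Gdf7, a ligand of the dorsal neural tube, 4984 bp upstream (1.54) and Gdf9, an oocyte ligand, 7568 bp downstream (2.66, turning to -0.28 after cyclic loess). The single Gdf3 region was lower (-1.28), a call lost without Chd3/4Δβ replicate 1.

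Among TGF-β ligands 3 of 4 regions were higher and none lower. Tgfb1, the founding ligand of the family, had 1.59, 2.39, 2.49 and 1.15 CPM in Control and 7.15, 7.52 and 7.82 CPM in Chd3/4Δβ at an intronic region (log2 fold change 2.01, SE 0.24, adjusted p = 4.3e-07). Its promoter region, at 24.99 ± 4.7 CPM in Control (SD, n = 4) and 38.1 ± 11 CPM in Chd3/4Δβ (n = 3), overlapped between the groups and missed the fold threshold (0.61). Tgfb2 was higher at 2 of 2 regions (1.85 and 1.56, the second turning to -0.15 after cyclic loess). Inhbb, the βB subunit of activin B, was higher at its only region (2.64). Of the 2 exonic regions of Inhbe, 1 was not called (7.08 ± 0.76 CPM in Control, SD, n = 4, and 5.18 ± 0.38 CPM in Chd3/4Δβ, n = 3, log2 fold change -0.45). The other region of this gene, which encodes the βE subunit known from liver, had 2.04, 1.25, 1.10 and 1.27 CPM in Control and 0.295, 0.282 and 0.563 CPM in Chd3/4Δβ. These levels are low but did not overlap, and the log2 fold change was -1.99 (SE 0.37, adjusted p = 9.6e-05), the largest loss of any ligand.

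**Figure D3:**
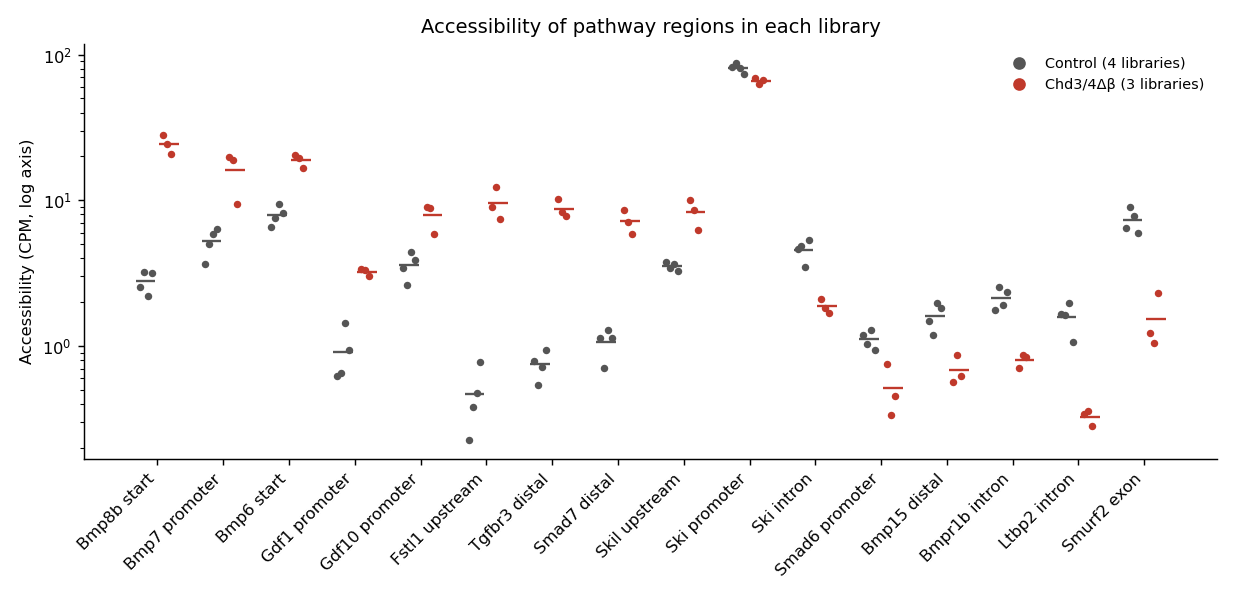
Accessibility in CPM (log y axis) of 16 pathway regions in each library, Control in grey (4 libraries) and Chd3/4Δβ in red (3 libraries), with horizontal lines at the group means. Control and Chd3/4Δβ libraries are apart in all 16 regions, with the widest gap at the Fstl1 upstream region (0.227 to 0.778 against 7.48 to 12.3 CPM) and a small one at the Ski promoter. The largest gains and losses by role were chosen among regions without overlap, so their separation was a condition of choice. Of all listed regions 88% showed no overlap.

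Of 55 regions of secreted antagonists 22 were higher and 3 lower. Bmper alone supplied 22 of the 55 regions and 11 of the 22 gains. The share higher (40.0%) was near the 37% of all listed regions, and the share lower was 5.45% beside 20.4%. The largest gain with a mean level of at least 1 CPM was 22862 bp upstream of Fstl1, which encodes a secreted follistatin-like glycoprotein abundant in mesenchymal cells. Its level was 0.227, 0.380, 0.478 and 0.778 CPM in Control and 8.95, 12.3 and 7.48 CPM in Chd3/4Δβ, with a log2 fold change of 4.21 (SE 0.29, adjusted p = 1.1e-10). A second, intronic Fstl1 region was also higher (1.67). Fstl4, a relative of follistatin, was higher at 4 of 6 regions by 2.03 to 4.36, from levels of at most 1.06 CPM in Control, and 3 of these 4 calls were lost after cyclic loess. Fstl5 was higher at 1 of 7 (3.55, also lost after cyclic loess). Neither of the 2 Fst regions, at the gene for the activin-binding protein follistatin, passed the thresholds.

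The BMP antagonists of the gremlin and noggin type changed in part. Grem1 was higher at 2 of 3 regions, both upstream of the gene. The nearer one, 7447 bp from the start, had 1.99, 2.88, 2.39 and 2.14 CPM in Control and 12.5, 9.49 and 10.6 CPM in Chd3/4Δβ (log2 fold change 2.22, SE 0.20, adjusted p = 5.7e-09). Around the Grem1 start itself, the region in which the promoter window lies, gave -0.56 and overlapped between the groups. Nog was higher at 2 of 3 regions (2.62 and 1.56), and both calls were lost after cyclic loess.

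Bmper encodes a secreted BMP-binding protein that can dampen or promote BMP signalling, and it had more regions (22) and more gains (11) than any other member. The gains spread over a wide stretch, from 208.7 kb upstream of the gene start to 311.0 kb downstream of it. The region 208.7 kb upstream had 0.0567, 0.163, 0.143 and 0.212 CPM in Control and 2.41, 2.10 and 2.76 CPM in Chd3/4Δβ, a log2 fold change of 3.90 (SE 0.38). The region 3.19 kb upstream had 1.47, 1.14, 1.10 and 1.13 CPM in Control and 9.95, 8.01 and 10.5 CPM in Chd3/4Δβ (log2 fold change 2.97, SE 0.22, adjusted p = 2.7e-10). Between them lay gains of 2.21, 1.09, 2.44, 3.30, 2.75 and 3.66 and a loss of -1.47. Within the gene, regions 27.2 and 45.9 kb from the start gained 1.03 and 1.87, and one 172 kb from the start was lower (-1.45). The gain 311.0 kb from the start, beyond the end of the gene, was 2.60. The promoter region of Bmper itself gave 0.46 and overlapped between the groups. Of the 11 gains, the one 181.1 kb upstream was lost with TMM factors, RLE factors or cyclic loess and without Control replicate 3. The one 27.2 kb into the gene, whose libraries overlapped, was lost under the same 3 scalings, the replicate block and the depth term, and without Control replicate 2 or Chd3/4Δβ replicate 2. The other 9 kept their call under each other scaling, filter, model and left-out library in which they were tested.

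**Figure D4:**
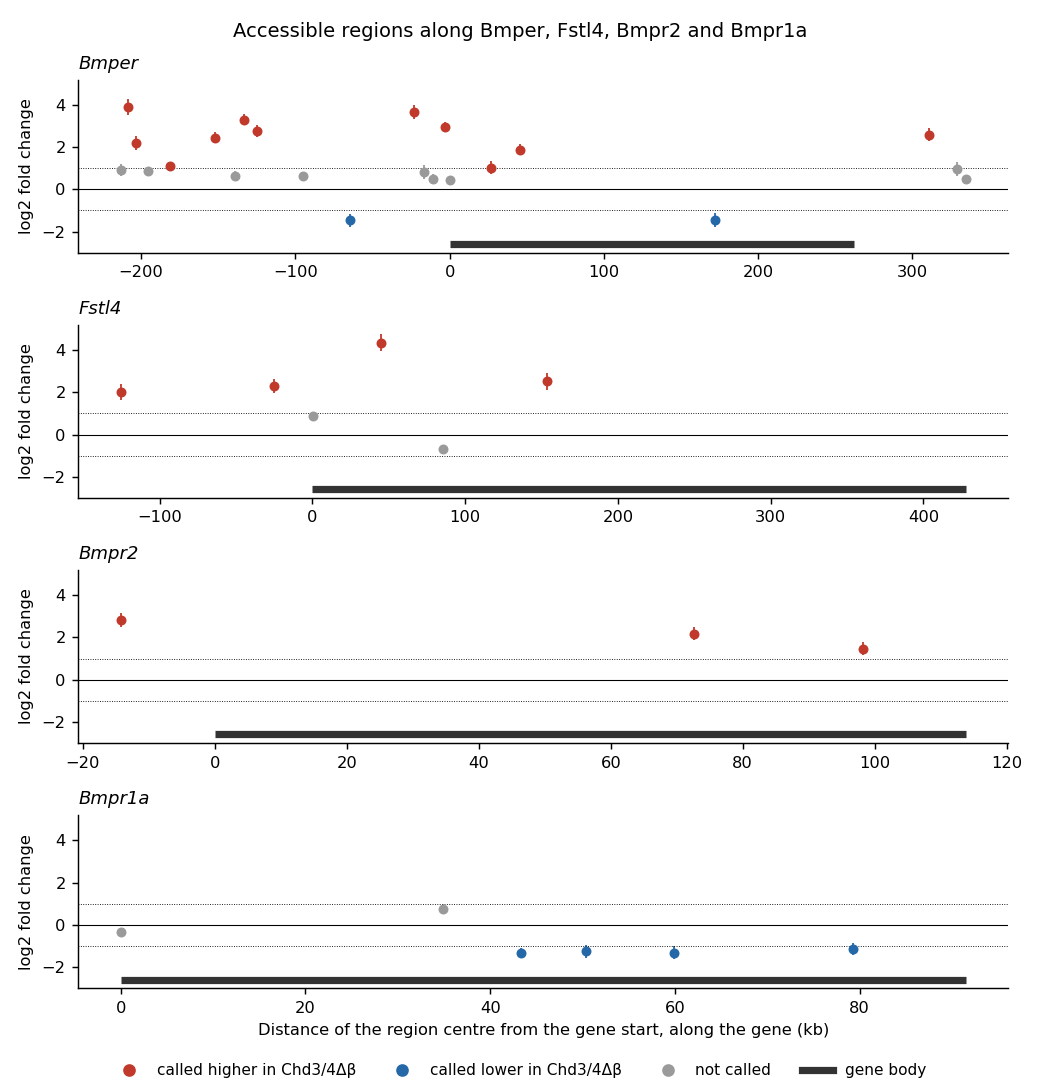
Log2 fold change (y axis, Chd3/4Δβ over Control, error bars are SE) of the listed regions of Bmper, Fstl4, Bmpr2 and Bmpr1a against the distance of the region centre from the RefSeq gene start along the gene's strand in kb (x axis), with the gene body as a dark bar. Red, blue and grey mark regions called higher, called lower and not called. Gains at Bmper lie mostly upstream of the gene, whereas the 4 losses at Bmpr1a lie 43.4 to 79.3 kb inside it.

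Latent TGF-β binding proteins, which tether newly secreted TGF-β to the matrix, differed by gene. Ltbp3 was higher at 2 of 2 regions, both annotated as transcription termination sites (1.92 and 2.18). Ltbp1 was higher at 4 of 8, all intronic (1.77 to 2.75, of which 2 calls were lost after cyclic loess), and lower at 1, where Chd3/4Δβ replicate 1 had 1.11 CPM and replicates 2 and 3 had 0.205 and 0.0563 CPM, against 1.41 to 2.03 CPM in Control. Ltbp2 was lower at 2 of 3 regions, both intronic. The larger loss had 1.64, 1.63, 1.96 and 1.06 CPM in Control and 0.341, 0.359 and 0.281 CPM in Chd3/4Δβ (log2 fold change -2.19, SE 0.35, adjusted p = 1.7e-05), with no overlap. None of the 4 Ltbp4 regions passed the thresholds.

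Among receptors, losses outnumbered gains, with 13 of 42 regions lower and 8 higher. The share lower was 31%, beside 20.4% of all listed regions. Bmpr1a held 4 and Bmpr1b 3 of the 13 losses and neither held a gain, so this balance rests in large part on these genes. Bmpr1a, a type I BMP receptor, had the most losses of any member, with 4 of its 6 regions lower and none higher, all 4 in introns. The one nearest to the start of the gene, 43.4 kb into it, had 5.96, 5.05, 5.40 and 6.76 CPM in Control and 1.93, 2.77 and 2.25 CPM in Chd3/4Δβ (log2 fold change -1.33, SE 0.22, adjusted p = 3e-05). The others gave -1.26, -1.32 and -1.14, without overlap, and the last call was lost without Chd3/4Δβ replicate 1 or 2. The Bmpr1a promoter, at 51.5 ± 11 CPM in Control (SD, n = 4) and 41.0 ± 3.7 CPM in Chd3/4Δβ (n = 3), gave -0.33 and was not called. Bmpr1b, the closely related type I receptor, was lower at 3 of 10 regions and higher at none. The largest of its losses had 1.76, 2.55, 1.91 and 2.36 CPM in Control and 0.704, 0.872 and 0.844 CPM in Chd3/4Δβ (log2 fold change -1.42, SE 0.30, adjusted p = 0.00042). All 3 Bmpr1b losses were intronic, and the one of -1.11 was lost without Chd3/4Δβ replicate 1.

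Bmpr2, the type II BMP receptor that pairs with both, had 3 of 3 listed regions higher. Their Control means were 0.346, 0.538 and 0.633 CPM. Under the authors' apparent level filter, regions this low in Control could be listed only as gains, so the direction at Bmpr2 carries little weight. The region 14.3 kb upstream of its start had 0.340, 0.380, 0.335 and 0.330 CPM in Control and 2.66, 2.59 and 2.14 CPM in Chd3/4Δβ (log2 fold change 2.84, SE 0.32, adjusted p = 1.5e-07). The 2 intronic regions gave 2.18 and 1.47, the second lost after cyclic loess. Tgfbr3, which encodes the coreceptor betaglycan, was higher at 2 of 2 intergenic regions. The region 38362 bp from an annotated start had 0.794, 0.543, 0.717 and 0.943 CPM in Control and 10.2, 8.29 and 7.76 CPM in Chd3/4Δβ, the largest gain of any receptor (log2 fold change 3.50, SE 0.24, adjusted p = 1e-10). The groups were widely separated there, whereas the other Tgfbr3 region (1.10) was lost with TMM factors, RLE factors, cyclic loess or the depth term and without Chd3/4Δβ replicate 2.

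Tgfbr1, the type I TGF-β receptor, was lower at 1 of 3 regions (-1.23, intronic, no overlap). Activin receptors were mixed. Acvr1c, a type I receptor of activins and related ligands that adult islets express, was lower at an intronic region (-1.38) and gave -0.58 at its promoter. Acvr2a, a type II activin receptor, was higher at 1 of 5 regions (2.20, intronic). Acvr2b, the other type II activin receptor, was higher at 1 of 2 regions (1.03), with 10.6, 10.5, 10.5 and 8.81 CPM in Control and 21.9, 20.9 and 18.7 CPM in Chd3/4Δβ. The Acvr2b libraries were well apart, yet a value this close to the fold threshold lost its call with TMM factors, RLE factors, cyclic loess or the replicate block and without Control replicate 4 or Chd3/4Δβ replicate 1. Acvr1, a type I BMP receptor, was higher at 1 (1.93) and lower at 2 of 5 regions (-1.23 and -1.29), the last with overlapping groups and lost with the replicate block, without Control replicate 4 or without Chd3/4Δβ replicate 2. Acvrl1, an endothelial type I receptor, was lower at 2 of 2 regions (-1.16 and -1.18). The first Acvrl1 call was lost without Chd3/4Δβ replicate 2 or 3, the second without replicate 2 or with the depth term, and neither of the 2 Acvr1b regions was called.

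The SMADs and SMURFs carry and limit the signal inside the cell. Smad5, a receptor-regulated SMAD of the BMP branch, was lower at 2 of 2 intronic regions. The first had 5.96, 7.0, 4.21 and 5.75 CPM in Control and 2.48, 1.98 and 2.03 CPM in Chd3/4Δβ (log2 fold change -1.39, SE 0.23, adjusted p = 2.5e-05), and the second gave -1.17, a call lost with the depth term or without Chd3/4Δβ replicate 2. Smad1, of the same branch, had 8 regions, of which 1 intronic region was higher (1.86, lost after cyclic loess) and the rest ranged from -0.76 to 0.84. Neither the single Smad9 nor the single Smad2 region was called. Smad4, the shared partner SMAD, had 1 intronic region higher (1.15) and 1 lower (-1.05) of 5. The gain was lost with TMM factors, RLE factors or cyclic loess, and the loss with the depth term, without Control replicate 3 or without Chd3/4Δβ replicate 2.

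Both inhibitory SMADs held gains and losses at separate regions. At Smad7, which blocks type I receptors, an intergenic region 30765 bp from an annotated start had 1.13, 0.705, 1.29 and 1.13 CPM in Control and 8.61, 7.08 and 5.85 CPM in Chd3/4Δβ (log2 fold change 2.74, SE 0.24, adjusted p = 5e-09). An intronic Smad7 region went the other way, with 1.53, 2.17, 2.39 and 1.89 CPM in Control and 0.636, 0.513 and 0.394 CPM in Chd3/4Δβ (log2 fold change -1.90, SE 0.33). Neither region overlapped between the groups, while the Smad7 promoter gave -0.52. Smad6, an inhibitor of the BMP branch, was higher at an intronic region (2.36, lost after cyclic loess) and lower at an intergenic one (-1.21). Its region annotated as a promoter lies inside the gene at an internal start and had 1.19, 1.03, 1.29 and 0.943 CPM in Control and 0.750, 0.334 and 0.450 CPM in Chd3/4Δβ. This was the 1 member promoter called lower (log2 fold change -1.06, SE 0.34, adjusted p = 0.012), and the call was lost without Control replicate 3, Chd3/4Δβ replicate 2 or Chd3/4Δβ replicate 3. The region that covers the Smad6 RefSeq start had 15.3 ± 1.9 CPM in Control (SD, n = 4) and 27.9 ± 6.0 CPM in Chd3/4Δβ (n = 3), a log2 fold change of 0.87 with adjusted p = 5.1e-05 that stayed under the fold threshold.

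SMURF1 and SMURF2 are ubiquitin ligases that mark SMADs and receptors for degradation, and 4 of their 9 regions were lower and 1 higher. These shares, 44.4% lower and 11.1% higher, rest on few regions and stand beside 20.4% and 37% of all listed regions. The largest loss of any SMAD or SMURF was an exonic Smurf2 region with 6.41, 8.95, 7.84 and 5.96 CPM in Control and 1.23, 1.05 and 2.31 CPM in Chd3/4Δβ. The groups were well apart (log2 fold change -2.33, SE 0.27, adjusted p = 1.9e-07). A Smurf2 intron 8521 bp from an annotated start was lower as well (-1.40), and another intronic region was higher (2.54) from at most 0.478 CPM in Control, turning to -0.27 after cyclic loess. Smurf1 was lower at 2 of 4 intronic regions (-1.41 and -1.04). The second of these was lost with the depth term and without Control replicate 2 or Chd3/4Δβ replicate 1 or 2.

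The corepressors, which hold SMAD complexes at target genes in an inactive state, had the smallest share of called regions of any role. Of 16 regions of Ski, Skil and Tgif1, 1 was higher and 1 lower. That is 6.25% each way, beside 37% higher and 20.4% lower among all listed regions. Their median Control level was 8.37 CPM, against 2.56 CPM over all listed regions, and the part of level in this share was not tested. An intronic Ski region had 4.65, 4.83, 3.49 and 5.30 CPM in Control and 2.11, 1.82 and 1.69 CPM in Chd3/4Δβ (log2 fold change -1.28, SE 0.24, adjusted p = 9.4e-05). A region 11044 bp upstream of Skil, the gene for SnoN, had 3.80, 3.42, 3.68 and 3.25 CPM in Control and 10.1, 8.54 and 6.30 CPM in Chd3/4Δβ (log2 fold change 1.25, SE 0.20, adjusted p = 1.7e-05). Neither overlapped between the groups, and the Skil call was lost with RLE factors. The median over the corepressors was 0.09, turning to -0.12 with TMM factors and -0.22 with RLE factors.

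Promoters held few of the calls. Of 24 promoter regions 3 were higher (Bmp7, Gdf1 and Gdf10) and 1 lower (Smad6). Over all promoter regions 22.1% were higher and 8.94% lower, 31% in either direction, and the median log2 fold change was -0.31 in both sets. The 5 member promoters with the most reads were those of Skil (127 ± 16 CPM in Control, SD, n = 4, and 100 ± 3.6 CPM in Chd3/4Δβ, n = 3), Fstl3, Gdf9, Smad2 and Ski. None was called, and their log2 fold changes lay between -0.37 and -0.30, turning to 0.03 to 0.19 after cyclic loess. Fstl3 encodes an activin-binding protein, and its promoter had 115 ± 6.0 CPM in Control and 92.2 ± 11 CPM in Chd3/4Δβ. Intergenic member regions were higher in 26 and lower in 5 of 53. Their share higher (49.1%) was near the 46.9% of all intergenic regions, and their share lower was 9.43% beside 18.5%. Of 105 intronic member regions 25 were higher and 25 lower, 23.8% each way, beside 35.0% higher and 24.0% lower among all intronic regions. Of the 141 regions inside the body of their own gene 32 were higher and 28 lower (22.7% and 19.9%). Of the 58 outside any protein-coding gene body 27 were higher and 6 lower (46.6% and 10.3%). This split was not made over all listed regions, so it shows no trait particular to the members. Assignment to the nearest start does not show which gene a distal region acts on.

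Other genes of the pathway, from a list of further regulators, processing enzymes, adaptors and known target genes, were read beside the members. Of 53 genes 43 had listed regions, 96 in all, of which 40 were higher, 14 lower and 42 neither. These shares, 41.7% higher and 14.6% lower, stand beside 37% and 20.4% of all listed regions. The largest gains were at Twsg1, a BMP-binding modulator (4.87, 4147 bp upstream of its start), Pcsk6, a protease that activates ligand precursors (4.57, intronic), Fn1, the matrix protein fibronectin and a TGF-β target (4.28), Nkx2-5, a cardiac target of BMP (3.74), and Zfyve16, an endosomal SMAD adaptor (3.70). The Twsg1 region had 0.284, 0.109, 0.191 and 0.0471 CPM in Control and 3.59, 5.21 and 3.43 CPM in Chd3/4Δβ. Each of these 5 regions had no Control library above 0.335 CPM and no Chd3/4Δβ library below 1.18 CPM. Under the authors' apparent level filter, regions this low in Control could be listed only with every Chd3/4Δβ library above it. This separation is therefore no evidence of its own. The largest losses were at Amhr2, the type II receptor of anti-Müllerian hormone (-2.57, intronic), Tab1, an activator of the kinase TAK1 (-2.15), Zfyve16 again (-2.01), Kcp, a secreted BMP regulator (-1.83), and Tgfbi, a matrix protein induced by TGF-β (-1.79). The Zfyve16 loss had 10.9, 8.47, 10.8 and 7.09 CPM in Control and 1.11, 1.31 and 5.18 CPM in Chd3/4Δβ, so that replicate 3 lay between the other Chd3/4Δβ libraries and Control.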

How the data were processed

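Tomato-positive β cells of 4 Control and 3 Chd3/4Δβ samples were profiled by ATAC-seq. Fragments over 600 bp were excluded per the labels. For the aligner, peak caller, counting tool and Tn5 shift, the entry is: not given in the sources used here. In 1 deposited table, the authors gave whole-number read counts per region and library, counted over a merged set of regions. The deposited CPM values are these counts scaled by a library size (17.6 to 44.0 M). These sizes were implied by the counts and CPM and are not whole numbers, so they may hold a normalization factor. Counts in listed regions came to 48.1% to 49.6% of the implied sizes. The deposited p-values and FDR are of the authors' own test, and served only to find that they had tested 109675 regions, of which the table holds the 61288 (55.9%) they called. The table's fold changes and test statistics of that comparison were not used.

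The submitters' notes name GRCm39, but 74.8% of 4494 promoter regions lay within 2 kb of their RefSeq GRCm38.p6 start, against 2.16% for the table's own gene columns, so coordinates are read as GRCm38. Gene assignment and annotation class are the table's, and gene bodies and promoter sequences are RefSeq's. Distances of regions given in bp are also the table's and count from an annotated start, which need not be the main start of the gene. Distances in kb, at Bmper, Fstl4, Bmpr2 and Bmpr1a, count from the RefSeq start. The 2 can differ widely, as at a Bmpr1a region with 1383 bp by the first and 43.4 kb by the second.

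edgeR 4.0.16 (R 4.3.3) was run on the counts (robust quasi-likelihood F-test, library sizes implied by the CPM, no filter beyond the authors' own, all 7 libraries), and p-values were adjusted by Benjamini-Hochberg over 109675 regions. SE is the log2 fold change divided by the square root of F. The fit was first tested on simulated data. Because the table holds regions that the authors had called, counts of calls describe it and are no independent evidence. Alternatives were TMM and RLE factors, listed-region totals, cyclic loess with limma 3.58.1 (prior count 2), DESeq2 1.42.0, a mean count of at least 50, adjustment over listed regions, other fold thresholds, promoters alone, a replicate block, a depth term and leaving out each library. Members and gene lists were chosen with earlier results of these data known. Not every member gene is reported by name here, and 1 gene with listed regions enters the counts unnamed.

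Regions were named by rule. These were the largest gain and loss per role (mean of at least 1 CPM, no overlap), the called promoters, the 5 promoters with the most reads, the genes with the most regions, gains or losses, and the 5 largest gains and losses of other pathway genes. Other regions were named after their values were seen, so that nearly every gene with a call is described. The column names of Control replicates 1 to 3 share a lane tag, and that of Chd3/4Δβ replicate 3 has a different tag. Those of Control replicate 4 and Chd3/4Δβ replicates 1 and 2 have no lane tag. If the tags mark runs, sequencing run and group cannot be told apart among the tagged libraries. Whether the untagged libraries share a run is not known.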

Additional observations from a re-analysis of the deposited data

Results flagged for a closer look

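In 13 of 211 regions whose values are given (6.16%), 1 of the 4 Control libraries stood far from the other 3, where chance gives about 1 in 20. The same held for the implied library size, which was 42.4 M in Control replicate 4 against 17.6 to 20.9 M in the others. Control replicate 1 was the one apart at an intronic region of Smad1 (5.84 CPM), at Bmper 3.19 kb upstream of the start (1.47 CPM), at the intronic Fstl1 region (1.53 CPM) and at an intronic region of Bmpr1a (3.29 CPM). Control replicate 2 was apart at an exonic region of Smad7 (11.1 CPM), at a Smurf1 intron (4.34 CPM), at the Bmper region 172 kb into the gene (0.760 CPM) and at Fstl4 125.5 kb upstream (0.760 CPM). Control replicate 4 was apart at Bmper 10.5 kb upstream (2.78 CPM), at Fstl4 45.1 kb into the gene (0.141 CPM), at a region of Gdf6 (8.69 CPM), at Acvr2b (8.81 CPM) and at the Bmpr1a promoter (67.8 CPM). Among called regions of these, the Smurf1 call was lost without Control replicate 2 and the Acvr2b call without Control replicate 4. The calls at Bmper 3.19 kb upstream, at Fstl1 and at Bmper 172 kb into the gene held without the library concerned.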

How the results depend on the processing

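Of 59 members called higher 35, and of 34 called lower 23, kept their call under each of 16 scaling, filter, model and left-out-library alternatives in which they were tested. The count filter left 8 of these 35 and 11 of these 23 untested. Against 59 higher, cyclic loess gave 37, a mean count of at least 50 gave 34 (148 regions tested), no fold threshold 108, a log2 fold of at least 2 gave 32 and promoters alone 3. Against 34 lower, RLE factors gave 62, the count filter 17, no fold threshold 91, a log2 fold of at least 2 gave 2 and promoters alone 1. For other pathway genes (40 higher, 14 lower), higher calls were 25 with cyclic loess, 19 at a log2 fold of at least 2 and 7 among promoters, and lower calls 25 with RLE factors, 4 with the count filter, 39 with no fold threshold, 3 at a log2 fold of at least 2 and 0 among promoters. For markers of other cell types (41 higher, 5 lower), higher calls were 15 at a log2 fold of at least 2 and 6 among promoters, and lower calls 8 with TMM factors, 10 with RLE factors, 3 with the count filter, 14 with no fold threshold, 1 at a log2 fold of at least 2 and 0 among promoters. Leaving out each library gave 57 to 67 higher and 29 to 39 lower members.

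Signs of single regions turned only with cyclic loess, which removes a trend with mean level. They turned to 0.0294 at Smad2, 0.19 at Skil, 0.17 at Fstl3, 0.15 at Gdf9 and 0.10 at Ski (promoters), 0.11 at the Acvr2a start, -0.56 at Bmper 16.7 kb upstream, -0.260 at Fst, and, among called regions, -0.28 at Gdf9, -0.27 at Smurf2 and -0.15 at Tgfb2. The cause was not tested. With the replicate number as a block 62 members were higher and 36 lower. Same-numbered libraries deviated together at r = 0.068, -0.031 and -0.016, so the numbers were not taken to pair them.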
